A study of Mus musculus with 6 samples.

Results

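The 8 genes described here are early erythroid genes of the mouse: Car1, Car2, Klf1, Epor, Apoe, Atp1b2, Blvrb and Ermap. They were chosen by name and found once each among the 23538 genes of every table. They were measured in 6 populations of sorted bone marrow cells from Mof -/+ (heterozygous) and wild type mice. Mof, with the gene symbol Kat8, encodes the acetyltransferase of lysine 16 of histone H4. Stem cells (HSC) and multipotent progenitors (MPP2, MPP3, MPP4) were sorted as Lin-negative Sca-1-positive cKit-positive cells, while 2 later stages, the common myeloid progenitors (CMP) and the progenitors of megakaryocytes and red cells (MEP), were Sca-1-negative and cKit-positive. CMP were CD34-positive and MEP CD34-negative. Each library was made from 15 cells by CEL-Seq2, a method that counts tags from the 3' end of each transcript, and each of the 12 groups had 3 libraries, 36 in all. No age, promoter or Cre driver is given in the labels, and every population of both genotypes was taken from bone marrow.

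Red cells arise from MEP, which still divide and do not yet make haemoglobin. Along this path the transcription factor Klf1 and the erythropoietin receptor Epor come on early, and globins, band 3 and the last enzymes of haem synthesis dominate the later erythroblast.

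Library totals ran between 1577 and 123765 counts, with a median of 41227, and 6 libraries held at most 12339 counts. The 6 shallow libraries were 1 heterozygous HSC library, all 3 wild type MPP2 libraries and 2 wild type MPP3 libraries. In the shallowest, heterozygous HSC replicate 2, a single count is worth 634 CPM (gene counts scaled to a common library total, as parts of 1e+06), and none of the 8 genes had a count. Kat8 itself had 11 counts in 18 heterozygous libraries and 12 in 18 wild type libraries, too few to check the genotype labels. The 2 genotypes of a population belong to different samples of the series, called pools here, so genotype and pool cannot be told apart. Whether replicate libraries come from different mice is not stated in the labels; p-values therefore reflect library-to-library spread, possibly technical. In RNA from 15 sorted cells, fewer cells of a type and less RNA per cell cannot be told apart.

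On GRCm38 (GENCODE M21), Car1 lies on chr3:14766216-14808368 (minus strand) and Car2 on chr3:14886273-14900770 (plus strand). Klf1 lies on chr8:84901928-84905291, Epor on chr9:21958897-21963506, Apoe on chr7:19696109-19699188, Blvrb on chr7:27447978-27466144, Atp1b2 on chr11:69599736-69605942 and Ermap on chr4:119175457-119190011. Only Car1 shares its interval with another annotated gene, the pseudogene Gm16399 on the same strand, so the split of reads between them is uncertain.

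Car1, the carbonic anhydrase I of red cells, was the member that most clearly set MEP apart. It had 2502, 2010 and 1687 CPM in heterozygous MEP, and 1937, 1343 and 1827 CPM in wild type MEP. None of the 30 libraries of the other populations reached the lowest MEP library, the highest of them being a heterozygous MPP2 library at 728 CPM. In CMP it had 146, 213 and 154 CPM in heterozygous libraries and 431, 330 and 576 CPM in wild type libraries. Outside CMP, MEP and MPP2 it was at most 97.6 CPM. No Car1 count was seen in heterozygous HSC or MPP3 or in wild type MPP4, which allows up to 40.0, 14.3 and 31.8 CPM (3 counts over the group, counting error only).

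Atp1b2, a beta subunit of the sodium pump, followed the same order at a lower level. It had 90.7, 93.2 and 205 CPM in heterozygous MEP and 159, 143 and 166 CPM in wild type MEP. CMP held 97.4, 0 and 56.6 CPM in heterozygous libraries and 71.8, 79.2 and 26.2 CPM in wild type libraries. Only 2 of the other 24 libraries had a count, 1 heterozygous MPP2 and 1 heterozygous MPP4 library. The MEP and CMP ranges were separate in wild type cells and overlapped in heterozygous cells.

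Apoe, the lipid carrier of plasma lipoproteins, did not separate MEP from CMP. It had 765, 905 and 1071 CPM in heterozygous MEP, against 454, 774 and 339 CPM in heterozygous CMP. In wild type cells it had 757, 714 and 615 CPM in MEP and 862, 713 and 615 CPM in CMP. It was also present in HSC, at up to 366 CPM in heterozygous and 309 CPM in wild type libraries, so it was not restricted to MEP and CMP.

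**Figure D1:**
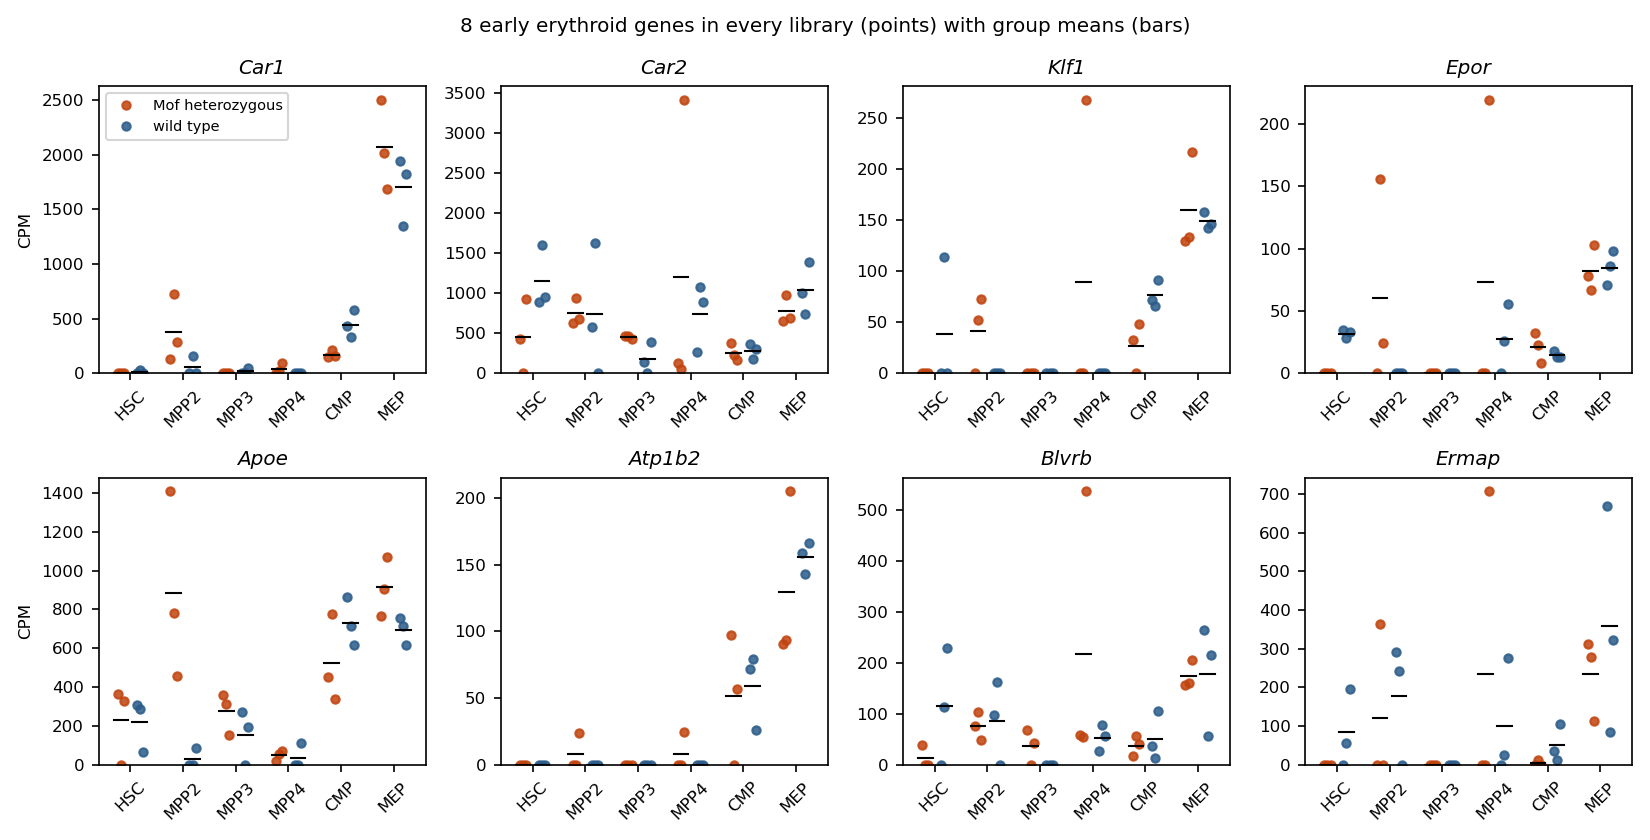
CPM of each of the 8 genes (vertical axis, one panel a gene) in every library of the 6 populations (horizontal axis), with Mof heterozygous libraries to the left of wild type ones; points are libraries and bars are means of 3. Car1 stands between 1343 and 2502 CPM in the 6 MEP libraries, above the 728 CPM of the highest library elsewhere, while Car2, Klf1, Epor, Blvrb and Ermap have their highest library in heterozygous MPP4.

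Klf1, the transcription factor that switches on red cell genes, had 130, 133 and 217 CPM in heterozygous MEP and 159, 143 and 147 CPM in wild type MEP. CMP held 32.5, 0 and 48.5 CPM in heterozygous libraries and 71.8, 66.0 and 91.6 CPM in wild type libraries. MEP was thus above CMP in every library of both genotypes. Epor, the receptor for erythropoietin, had 77.8, 66.6 and 103 CPM in heterozygous MEP and 70.4, 85.7 and 97.7 CPM in wild type MEP. Its CMP libraries stayed between 8.08 and 32.5 CPM in heterozygous cells and between 13.1 and 17.95 CPM in wild type cells, again without overlap. With 63 counts in all 36 libraries, Epor was the most sparsely counted member.

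Ermap, an erythroid membrane protein that carries the Scianna blood group in humans, varied most among MEP libraries. It had 311, 280 and 114 CPM in heterozygous MEP and 669, 85.7 and 322 CPM in wild type MEP. In CMP it had 0, 11.2 and 0 CPM in heterozygous libraries and 35.9, 13.2 and 105 CPM in wild type libraries. Blvrb, the flavin and biliverdin reductase of red cells, had 156, 160 and 205 CPM in heterozygous MEP and 264, 57.1 and 215 CPM in wild type MEP. Its CMP libraries lay between 16.2 and 56.1 CPM in heterozygous cells and between 13.2 and 105 CPM in wild type cells. The lowest wild type MEP library overlapped wild type CMP for both genes.

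Car2, the fast carbonic anhydrase II, was also abundant outside MEP. It had 648, 972 and 695 CPM in heterozygous MEP and 1004, 743 and 1387 CPM in wild type MEP. CMP held less, with 373, 224 and 162 CPM in heterozygous and 359, 172 and 301 CPM in wild type libraries. HSC held 424, 0 and 932 CPM in heterozygous libraries and 894, 1596 and 949 CPM in wild type libraries, so the wild type HSC and MEP ranges overlapped. In all, 10 of the 30 libraries outside MEP reached the lowest MEP library, beside 11 for Blvrb and 7 for Ermap.

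The share of Car1 among Car1 and Car2 counts was at least 56.8% in MEP and at most 1.75% in HSC. It was 79.4, 67.4 and 70.8% in heterozygous MEP and 65.9, 64.4 and 56.8% in wild type MEP. CMP held 28.1, 48.7 and 48.7% in heterozygous libraries and 54.5, 65.8 and 65.7% in wild type libraries. The heterozygous MEP and CMP shares did not overlap, and the wild type ones did.

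Against the mean of the other 5 populations, 2 of the 8 genes passed the test in heterozygous cells and the same 2 in wild type cells, Car1 and Atp1b2 (limma on log2 values, Benjamini-Hochberg adjusted p under 0.05). Of all 6501 genes tested, 0.0615% were called higher in MEP in heterozygous cells and 0.0615% in wild type cells. Of the other 5 populations only CMP shares a pool with MEP, so for the rest population and pool cannot be told apart. Depth differed too, with 10331 to 12339 counts in wild type MPP2 libraries and 34996 to 102375 in wild type MEP libraries. The Car1 difference was 4.85 ± 0.56 on the log2 scale in heterozygous cells (SE, limma adjusted p = 2.19e-08) and 4.91 ± 0.56 in wild type cells (limma adjusted p = 1.44e-08). For Atp1b2 it was 2.18 ± 0.45 in heterozygous cells (adjusted p = 0.0158) and 2.55 ± 0.45 in wild type cells (adjusted p = 5.13e-04). All 8 differences were positive in both genotypes, beside 62.8% of all genes tested in heterozygous and 63.9% in wild type cells. The median of the 8 was 2.01 in heterozygous and 2.24 in wild type cells, beside 0.16 and 0.21 over all genes tested. edgeR's quasi-likelihood test on the same genes called 6 members in heterozygous cells (all but Car2 and Blvrb) and 7 in wild type cells (all but Car2), where it called 1.11% and 4.20% of all genes higher in MEP. Without heterozygous MPP4 replicate 3, limma called 4 in heterozygous cells, Car1, Klf1, Atp1b2 and Ermap, beside 0.138% of all genes. Without heterozygous HSC replicate 2, which enters the shared spread, it called 4 in wild type cells, Car1, Klf1, Apoe and Atp1b2, beside 0.261% of all genes. Leaving out any 1 of the 3 heterozygous MEP libraries, or the 7 libraries rich in neutrophil transcripts (3 of them MEP), left Car1 alone in heterozygous cells, and leaving out those 7 did so in wild type cells too. Without those 7, MEP had 2 heterozygous libraries and 1 wild type library, and the lone library is assumed to vary like the other groups.

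MEP and CMP share a pool within each genotype. Between them limma called none of the 8 genes in either genotype, nor any of the 6501 tested (0% called higher in MEP in heterozygous cells and 0% in wild type cells). All 3 MEP libraries lay above all 3 CMP libraries for 6 members in heterozygous cells and 5 in wild type cells, beside 5.71% and 5.21% of all genes tested. At an unadjusted p under 0.05, 5 members passed in heterozygous and 4 in wild type cells, beside 0.400% and 1.29% of all genes tested. The Car1 difference was 3.42 ± 0.73 in heterozygous cells (limma adjusted p = 0.0947) and 1.89 ± 0.73 in wild type cells (limma adjusted p = 1). The difference between these 2 values was 1.53 ± 1.03 (limma adjusted p = 1), and of all genes tested 0% were called there. edgeR's quasi-likelihood test on the same genes called Car1 and Ermap in heterozygous cells (adjusted p = 3.93e-06 and 0.0313) and no member in wild type cells, where it called 0.0769% and 0% of all genes higher in MEP. Without heterozygous HSC replicate 2, wild type MPP2 replicate 2 or wild type MPP3 replicate 2, limma called Car1 in heterozygous cells (adjusted p = 0.0442, 0.0266 and 0.0498).

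Counts pooled over the 3 libraries of a group show the sizes without a log scale, with exact 95% intervals that cover counting error only. Car1 was 11.97 times higher in MEP than in CMP of heterozygous cells (interval 8.87 to 16.5) and 3.96 times in wild type cells (3.14 to 5.04). Car2 was 3.34 times higher (2.50 to 4.52) in heterozygous and 4.30 times (3.20 to 5.87) in wild type cells. For Apoe the ratio was 1.82 (1.46 to 2.27) in heterozygous and 0.94 (0.74 to 1.20) in wild type cells.

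In the order of the 12 group means, the Car1 levels of heterozygous and wild type MEP overlapped each other and stood clear of wild type CMP, the next group. For Atp1b2 the same held, except that wild type MEP ranked above heterozygous MEP. For Car2, Klf1, Epor, Apoe, Blvrb and Ermap each of the 4 highest groups overlapped the next one. For Klf1 and Epor those groups include heterozygous MPP4, whose counts came from replicate 3 alone. MEP and CMP did not overlap for Klf1 and Epor.

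**Figure D2:**
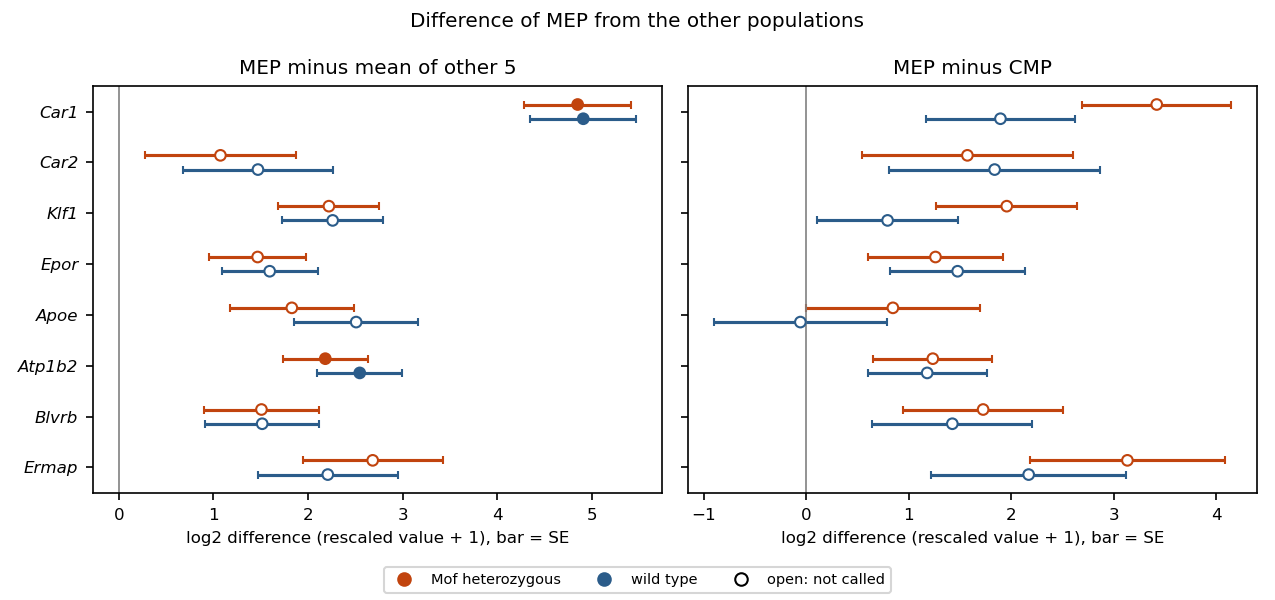
Differences of MEP from the mean of the other 5 populations (left) and from CMP (right) for the 8 genes, on the log2(rescaled value + 1) scale with standard errors, Mof heterozygous above wild type. Filled points passed the limma test: Car1 and Atp1b2 in the left panel, none in the right.

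A test for any difference among the 6 populations called 3 of the 8 genes in heterozygous cells (Car1, Apoe and Atp1b2), where 0.754% of all genes were called. In wild type cells it called 4 (Car1, Klf1, Apoe and Atp1b2), where 3.77% of all genes were called. Apoe passed here with limma adjusted p = 0.0216 in heterozygous and 3.72e-04 in wild type cells. Car2, Epor, Blvrb and Ermap passed limma in neither genotype. In this test too, population and pool cannot be fully told apart. Without heterozygous MPP4 replicate 3 Klf1 was called too in heterozygous cells, and with any 1 of the 3 heterozygous MEP libraries left out Car1 alone was. With edgeR's quasi-likelihood test on the same genes, Ermap was called too in heterozygous and wild type cells (adjusted p = 2.10e-04 and 0.0378). That test also called Klf1, Epor and Blvrb in heterozygous cells (adjusted p = 0.00141, 0.0302 and 0.0127). The share of all genes it called is not given here.

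One library outside MEP held 5 of the members at their highest level of all 36 libraries. Heterozygous MPP4 replicate 3 had 3414 CPM of Car2, 268 of Klf1, 220 of Epor, 537 of Blvrb and 707 of Ermap. The other 2 heterozygous MPP4 libraries had no count of Klf1, Epor or Ermap. The remaining 3 members were lower in the same library than in any MEP library, with 97.6 CPM of Car1, 73.2 of Apoe and 24.4 of Atp1b2 (1 count). Each was still above the other 2 heterozygous MPP4 libraries, which had 0 and 17.9 CPM of Car1, 16.9 and 53.8 of Apoe and no Atp1b2. The Car1 share in heterozygous MPP4 replicate 3, 2.78%, lay far below the 56.8 to 79.4% of the MEP libraries.

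Genes of later red cell stages stood with those 5. The summed globins were 103434 CPM in heterozygous MPP4 replicate 3, against 7833 and 897 CPM in the other 2 libraries of that group, and at most 365 CPM in MEP. Slc4a1, the anion exchanger band 3, had 2268 CPM there and no count in any MEP or CMP library. Alas2, the erythroid first enzyme of haem synthesis, had 1146 CPM there, against at most 13.3 CPM in MEP. Other libraries held these genes too, with 1552 CPM of Alas2 in wild type MPP4 replicate 3 and 1621 CPM of Slc4a1 in wild type MPP2 replicate 2. In heterozygous MPP4 replicate 3 the 16 haem genes summed to 8097 CPM and the 20 red cell membrane genes to 10097 CPM, each the highest of all 36 libraries. B cell markers summed to 3439 CPM in it and to 4005 and 4289 CPM in the other heterozygous MPP4 libraries. The part of admixed cells in these values was not tested.

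Other globin-rich libraries did not show all 5 of these genes at such levels. Wild type MPP4 replicate 3 held more globin, 146563 CPM, with 887 CPM of Car2, 277 of Ermap, 55.4 of Epor and no Klf1 or Car1. Wild type HSC replicate 2, at 34564 CPM of globin, had 114 CPM of Klf1 and 1596 of Car2 but 28.5 of Car1. MEP had the reverse, high Car1 with almost no globin. CMP was low in globin too, at most 67.3 CPM in heterozygous and 269 CPM in wild type libraries. Leaving out the 8 libraries with more than 10000 CPM of globin raised the members called in MEP against the other populations to 4 in heterozygous cells (Car1, Klf1, Atp1b2 and Ermap) and 5 in wild type cells (Car1, Klf1, Atp1b2, Blvrb and Ermap), beside 0.168% and 0.290% of all genes. This left 1 wild type library each of HSC, MPP2 and MPP4, assumed to vary like the other groups.

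**Figure D3:**
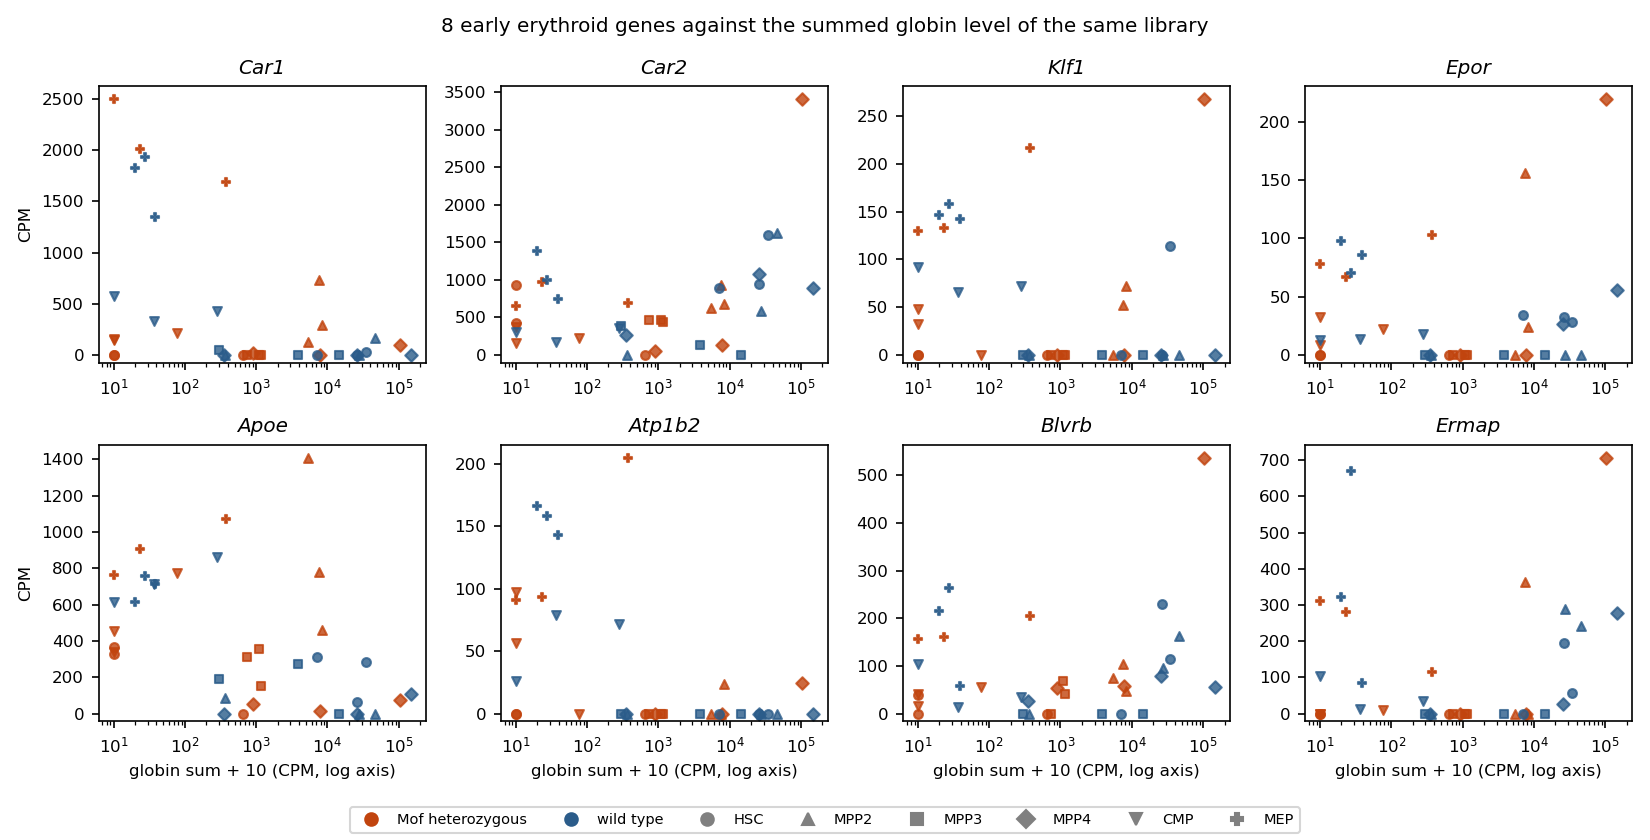
CPM of each of the 8 genes (vertical axis) against the summed globin level of the same library plus 10 CPM (horizontal log axis), with colour for genotype and symbol for population. Car1, Apoe and Atp1b2 are high in globin-poor MEP libraries at the left, and Car2, Klf1, Epor, Blvrb and Ermap peak in the heterozygous MPP4 library at 103434 CPM of globin. Klf1, Epor and Ermap still have their highest group mean in MEP, and the highest Apoe library, at 1409 CPM, is a heterozygous MPP2 one.

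Promoter windows from RefSeq on GRCm38.p6, from 250 bases before to 50 after the start, were found for 5 of the 8 genes (Klf1, Epor, Apoe, Blvrb and Ermap, 8 windows). The first window of each is shown; the genes of 4 of them (Klf1, Epor, Blvrb and Ermap) peaked in the same MPP4 library and Apoe did not. Showing them was decided after the values were seen. Capitals mark, on either strand, words of the kind bound by GATA factors (AGATAA and its variant AGATAG, and also TGATAA with its variant TGATAG) and words of the kind bound by Klf factors (CCACACCC and its variant CCCCACCC, and also CCACGCCC with its variant CCCCGCCC). The windows lie at chr8:84901732-84902031 (Klf1, plus strand), chr9:21963527-21963826 (Epor, minus strand), chr7:27447728-27448027 (Blvrb, plus strand), chr4:119189946-119190245 (Ermap, minus strand) and chr7:19699139-19699438 (Apoe, minus strand), and are written along the gene.
Klf1: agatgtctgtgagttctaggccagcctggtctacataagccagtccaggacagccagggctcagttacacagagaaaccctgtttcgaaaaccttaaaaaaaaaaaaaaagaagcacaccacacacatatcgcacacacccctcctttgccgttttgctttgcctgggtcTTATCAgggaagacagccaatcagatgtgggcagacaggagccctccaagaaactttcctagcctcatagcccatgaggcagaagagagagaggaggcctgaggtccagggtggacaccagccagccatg
Epor: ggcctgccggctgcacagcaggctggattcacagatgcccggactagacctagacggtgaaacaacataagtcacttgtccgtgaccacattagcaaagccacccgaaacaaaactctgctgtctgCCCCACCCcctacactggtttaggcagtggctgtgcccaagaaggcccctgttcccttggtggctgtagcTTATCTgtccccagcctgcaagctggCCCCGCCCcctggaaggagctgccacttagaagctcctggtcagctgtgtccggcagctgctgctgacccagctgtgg
Blvrb: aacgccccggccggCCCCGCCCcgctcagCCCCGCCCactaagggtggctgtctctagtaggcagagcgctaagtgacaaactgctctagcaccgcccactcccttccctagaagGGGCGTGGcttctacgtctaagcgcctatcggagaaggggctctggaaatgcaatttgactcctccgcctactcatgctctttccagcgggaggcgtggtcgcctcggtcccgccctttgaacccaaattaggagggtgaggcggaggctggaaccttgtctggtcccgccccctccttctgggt
Ermap: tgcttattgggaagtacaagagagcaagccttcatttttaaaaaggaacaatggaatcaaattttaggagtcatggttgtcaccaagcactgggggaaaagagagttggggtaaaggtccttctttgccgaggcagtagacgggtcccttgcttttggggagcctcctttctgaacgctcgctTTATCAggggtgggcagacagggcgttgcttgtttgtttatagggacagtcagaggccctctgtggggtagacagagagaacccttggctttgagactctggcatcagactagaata
Apoe: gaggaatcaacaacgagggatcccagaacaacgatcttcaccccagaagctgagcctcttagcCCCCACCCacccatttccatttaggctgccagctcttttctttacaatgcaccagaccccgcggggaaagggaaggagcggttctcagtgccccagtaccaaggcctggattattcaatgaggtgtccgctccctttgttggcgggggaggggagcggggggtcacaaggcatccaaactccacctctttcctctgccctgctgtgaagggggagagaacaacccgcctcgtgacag
A GATA word stands 80 bases before the start in Klf1, 54 before it in Epor and 67 before it in Ermap, and none stands in the first window of Blvrb or Apoe. Blvrb holds 3 of the Klf words there, Epor 2 and Apoe 1. The second Blvrb window has a GATA word 196 bases before its start and the third Apoe window 29 bases before its start, so 5 of the 8 windows hold one. Of all 32851 windows, 29.8% hold a GATA word, 29.7% a Klf word and 5.33% both. A match is a description of letters and not a binding site.

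The genotypes were compared in each population, asking whether loss of 1 Mof copy goes with the level of these genes. In MEP no member was called (0.0310% of 6444 genes were), and the largest differences, heterozygous minus wild type, were -0.40 ± 0.91 for Car2 and 0.38 ± 0.70 for Apoe on the log2 scale. The Apoe libraries did not overlap, at 765 to 1071 CPM in heterozygous and 615 to 757 CPM in wild type MEP, yet did not pass; 6.70% of all genes tested also had all 3 heterozygous libraries above. The Car1 difference in MEP was 0.28 ± 0.59, with a 95% interval of -0.91 to 1.47. This interval is not the limit of detection after correction over all genes. A larger Car1 difference in MPP2, 2.16 ± 0.59, did not pass either (limma adjusted p = 0.188). Cd34, whose protein the MEP gate excludes, had 207, 133 and 217 CPM in heterozygous MEP and no count in wild type MEP (limma adjusted p = 0.0116). Mature neutrophil markers summed to between 557 and 33890 CPM over the 6 MEP libraries. Mast cell and basophil markers summed to between 186 and 308 CPM in heterozygous MEP (3 of 8 with a count, Fcer1a, Gzmb, Prss34, Cma1 and Tpsb2 at 0) and between 85.7 and 107 CPM in wild type MEP (5 of 8, Gzmb, Cma1 and Tpsb2 at 0). The part of these cells in the MEP values was not tested.

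In CMP the heterozygous libraries lay below the wild type ones for 3 of the 8 members without overlap, Car1, Klf1 and Ermap, beside 4.98% of all genes tested. No member was called there, and 0.0310% of all genes were. The differences were -1.35 ± 0.59 for Car1, -1.45 ± 0.63 for Klf1 and -1.74 ± 0.86 for Ermap, all with limma adjusted p = 1. In pooled counts Car1 had 47 in heterozygous and 93 in wild type CMP, a ratio of 0.38 (0.26 to 0.55). Klf1 had 8 counts in heterozygous and 16 in wild type CMP, and Ermap 1 in heterozygous and 11 in wild type CMP. None of the 3 passed the correction.

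In MPP2 the heterozygous libraries had more Apoe, the only member called in any genotype comparison, where 0.0776% of all genes were called. It had 1409, 780 and 458 CPM in heterozygous MPP2 and 0, 0 and 88.5 CPM in wild type MPP2. The groups did not overlap, as for 9.45% of all genes tested with heterozygous libraries above, and the difference was 3.61 ± 0.70 on the log2 scale (limma adjusted p = 0.0114). Pooled, these were 90 and 1 counts, a ratio of 30.4 (5.33 to 1216). All 3 wild type MPP2 libraries were shallow, between 10331 and 12339 counts, while the heterozygous ones held between 19221 and 41452. The call was lost when any 1 of 4 MPP2 libraries was left out (heterozygous replicate 1 or 2, wild type replicate 1 or 2), with adjusted p up to 0.185. Some markers of other cells moved with genotype in MPP2, and others overlapped. B cell markers summed to between 676 and 1334 CPM in heterozygous MPP2 (9 of 9 with a count) and between 2904 and 5578 CPM in wild type MPP2 (8 of 9, Pax5 at 0). Primary granule and myeloid markers summed to between 241 and 554 CPM in heterozygous MPP2 (6 of 8, Elane and Cebpe at 0) and between 891 and 2745 CPM in wild type MPP2 (4 of 8, Elane, Ctsg, Cebpa and Cebpe at 0). Neither list overlapped between the genotypes. Macrophage markers, of cells that make Apoe, overlapped, at 48.2 to 1093 CPM in heterozygous MPP2 (12 of 15, Mrc1, Slc40a1 and Mertk at 0) and 0 to 1549 CPM in wild type MPP2 (10 of 15, C1qb, Cd68, Mrc1, Ms4a7 and Mertk at 0). Mature neutrophil markers overlapped too, at 531 to 1334 CPM in heterozygous and 486 to 19166 CPM in wild type MPP2. So did megakaryocyte markers (52.0 to 917 and 0 to 162 CPM) and mast cell and basophil markers (0 to 277 and 0 to 96.8 CPM). The part of these cells in the Apoe difference was not tested.

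Car1 also had more counts in heterozygous MPP2, with 125.8, 728 and 289 CPM against 0, 162 and 0 CPM in wild type MPP2. These groups overlapped, and the difference of 2.16 ± 0.59 did not pass (limma adjusted p = 0.188). Summed globins were 5385, 7544 and 8275 CPM in heterozygous MPP2 and 27393, 45709 and 354 CPM in wild type MPP2, and their part in these differences was not tested.

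Epor had no count in heterozygous HSC and 1 count in each wild type HSC library, which at these depths is not a detectable difference; 6.33% of all genes tested had all 3 heterozygous HSC libraries below. Summed globins did not overlap in the same comparison, at 0, 634 and 0 CPM in heterozygous HSC and 7117, 34564 and 26105 CPM in wild type HSC. The globin gene listed as Beta-s was called lower in heterozygous HSC (-7.84 ± 1.32 on the log2 scale, limma adjusted p = 0.00110). The part of globin-rich cells in the HSC values of the members was not tested. Car2 in MPP3 had 460, 463 and 433 CPM in heterozygous libraries and 137, 0 and 384 CPM in wild type libraries, without overlap, as for 21.6% of all genes tested with heterozygous libraries above. No member was called in HSC, MPP3 or MPP4, where 0.0155%, 0.310% and 0.0310% of all genes were called. Over the average of the 6 populations none was called either, beside 0.0776% of all genes. Apoe had the largest average, 0.82 ± 0.29 (limma adjusted p = 0.263), and Ermap the lowest, -0.63 ± 0.35 (adjusted p = 0.525).

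**Figure D4:**
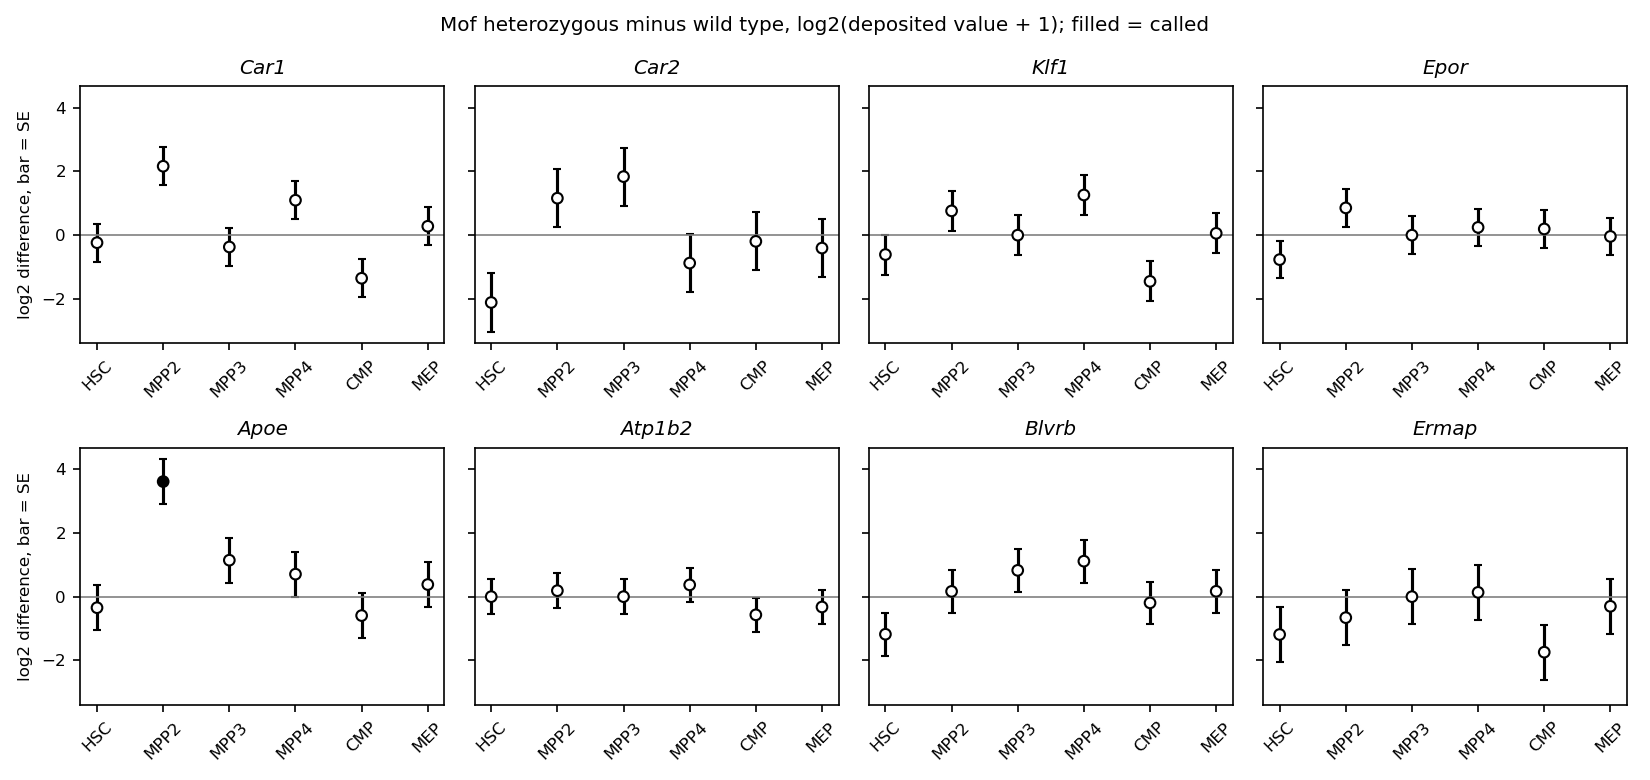
Mof heterozygous minus wild type for the 8 genes (panels) in each population (horizontal axis), on the log2(deposited value + 1) scale with standard errors. The filled point, Apoe in MPP2 at 3.61, is the only one that passed the limma test.

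Few other genes of the same processes were called. Of 14 erythroid transcription factors, all were tested and none was called in MEP against the other populations in either genotype. In these lists abundance was ranked by mean CPM over the 12 groups and not in MEP alone. The 2 most abundant factors were Myb, at 748 CPM in heterozygous and 886 CPM in wild type MEP, and Bcl11a, at 456 and 482 CPM. Of 20 red cell membrane genes 13 were tested, of 16 haem genes 13 and of 12 genes of erythropoietin receptor signalling 12, again with none called in either genotype. Their median differences were 0.09, 0.22 and -0.33 in heterozygous cells and -0.17, 0.03 and 0.17 in wild type cells. Slc4a1 and Alas2 ranked among the most abundant over the 12 groups, though Slc4a1 had no count in MEP and Alas2 at most 13.3 CPM. Beside them stood Cd47, a membrane protein that protects cells from phagocytosis, at 912 CPM in heterozygous and 762 CPM in wild type MEP. The other was Slc25a37, the mitochondrial iron importer, at 48.7 CPM in heterozygous and 44.5 CPM in wild type MEP. The most abundant of the signalling genes were the kinase Pim1 and the phosphatase Ptpn6, at 301 and 213 CPM in heterozygous and 154 and 251 CPM in wild type MEP. Globins ran the other way, and the gene listed as Beta-s, an adult beta globin, was called lower in wild type MEP than in the other populations (-6.17 ± 1.04, limma adjusted p = 2.52e-04). Hba-a1, an alpha globin, averaged 15.2 CPM in heterozygous MEP and had no count in wild type MEP.

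Relatives and partners of single members were counted in the same way. Of 14 other carbonic anhydrases only Car5a and Car5b passed the filter on low values, and neither was called; they are mitochondrial and averaged 125 and 75.4 CPM in heterozygous MEP. Of 7 other sodium pump subunits 4 were tested, led by Atp1b3 and Fxyd5, and of 10 lipid transport partners of Apoe 2 were tested, Abcg1 and Sort1. None was called in MEP against the other populations.

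Genes whose levels over the 12 group means were most like those of a member were ranked by Pearson's r of log2(CPM + 10), as a description over groups that share pools and depth. For Car1 they were Mfsd2b (r = 0.94), Hdgf (0.93), Gata1 (0.92), Aqp1 (0.91) and Samd14 (0.89). Gata1 is the master transcription factor of the red cell line, and Aqp1 its water channel. For Apoe they were F2r (0.97), Gata2 (0.95), Cd63 (0.94), Stxbp5 (0.93) and Sord (0.93). Mfsd2b was also among the 5 for Klf1 (0.91), after Mapk9 (0.92), and for Atp1b2 (0.91), which Mt1 led (0.96). The closest gene was Akt2 for Car2 (0.88), Mns1 for Epor (0.91), Tubb4b for Blvrb (0.91), Nmt1 for Ermap (0.83) and Heatr1 for the sum of the 8 (0.92). Among the members, Klf1 was closest to Car1 (0.94) and Atp1b2 (0.93), and Ermap was farthest from Apoe (0.20).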

How the data were processed

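The files hold a deposited signal, scaled by the authors within each library: 100% of values came out as whole numbers (within 0.01 counts) once divided by the smallest positive value of their library. The submitters' processing notes name BWA 0.6.2-r126 and the mm10 build; counter and molecular identifier handling: not given in the sources used here. Counts were recovered by that division, and CPM were taken over genes without the 92 spike-ins. In wild type MEP the names of genes after the first 6842 stand out of line, and rows were named by their position in the other tables; this moves 2 of the members, Klf1 (29 counts by position, 31 under the deposited name) and Ermap (74 and 0).

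The main test was limma 3.58.1 (R 4.3.3) with a trend, on log2(value + 1) over all 36 libraries, in place of the count test the design foresaw, because the files hold scaled values. Genotypes were compared on deposited values (6444 genes) and populations on counts rescaled to a total of 41227 (6501 genes), for genes with a mean of at least 1; all 8 members passed. Fold changes on this scale understate those of low genes. p-values were adjusted by Benjamini-Hochberg over all genes tested, at 0.05. The recovered counts were also tested with edgeR 4.0.16. Scripts were tested on simulated data. The genes named beside the members include the 2 most abundant of each list of a process or family, by mean CPM over the 12 groups. They also include the listed genes called in a comparison and the genes most alike over the 12 group means. Markers of other cells are given as sums. No promoter met the rule for printing, a limma call in MEP against CMP, so those shown were chosen after the values were seen. The members, lists and tests were chosen with earlier results of these data known.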

Additional observations from a re-analysis of the deposited data

How the results depend on the processing

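Of 360 differences of single members under other settings, 321 kept their direction and side of the threshold, and 1 reversed: Apoe in MEP minus CMP of wild type cells was 0.0645 without the 7 libraries rich in neutrophil transcripts, and -0.17 to 0.0636 with 1 library left out. The members called in MEP against the other populations numbered 6 in heterozygous and 7 in wild type cells with edgeR on the genes tested with limma, 4 and 4 with TMM scaling, 4 and 5 without the globin-rich libraries, and 1 and 1 without the neutrophil-rich libraries, which leaves 1 wild type MEP library. That edgeR test called 1.11% of all genes higher in MEP in heterozygous and 4.20% in wild type cells, beside 0.0615% in each with limma. With a pseudocount of 0.1 the heterozygous count of members was 1. With 1 library left out the members called ran from 1 to 4 in heterozygous and 2 to 4 in wild type cells. In MEP against CMP of heterozygous cells 1 member was called by edgeR (TMM or RLE), 2 by edgeR on the limma genes, and 1 with no filter, with TMM scaling, without the 6 shallow or the globin-rich libraries, and 0 to 1 with 1 library left out. Among populations the count in wild type cells was 2 by edgeR (TMM or RLE, which by default test 4 members) and 7 with TMM scaling or without globin-rich libraries; in heterozygous cells it was 7 by edgeR on the limma genes, 1 with a pseudocount of 0.1, 5 with TMM scaling or without globin-rich libraries, and 1 to 4 with 1 library left out. Between genotypes the MPP2 count was 0 with no filter or without globin-rich libraries (1 wild type MPP2 library left) and 0 to 1 with 1 library left out, the MPP3 count was 1 without neutrophil-rich libraries (1 wild type MPP3 library left, of 2764 counts and none of the 8 genes), and the average count was 1 by edgeR on the limma genes and 0 to 1 with 1 library left out. A lone library is assumed to vary like the other groups. The share of all genes called changed with the setting too. A count of members given without that share does not set the members apart from other genes. The cause of these shifts between settings was not tested. TMM scaling moved the median of all genes by 0.22 in MEP against the other populations of wild type cells, by 0.10 in heterozygous cells and by 0.12 between genotypes in MPP3. The settings without globin-rich or neutrophil-rich libraries and edgeR on the limma genes were chosen after seeing the data. No paired analysis was possible because the columns carry no replicate numbers that groups share. Depth limits the zeros of the shallow libraries most.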
